A study of Mus musculus with 2 samples.

Results

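Immediate early genes are transcribed within minutes of a stimulus, without new protein synthesis, and most of their transcripts decay within hours. Here 9 of them were followed in 2 sections of healing mouse femur: *Fos*, *Fosb*, *Jun*, *Junb*, *Egr1*, *Atf3*, *Ier2*, *Nr4a1* and *Dusp1*. They are 9 of the 19465 genes in the files and were chosen by name, with earlier results of these data known. The animals were female bone cell reporter (BCR) mice, aged 12 weeks at surgery and 17 weeks at euthanasia, and all carried a femoral osteotomy held by an external fixator. After bridging, from week 3 to week 5, the Loaded group received cyclic loading of 8 to 16 N at 10 Hz through the fixator in 3 sessions per week, whereas the Control group received sham sessions at 0 N. The mice were euthanized 10 hours after the last session. The study had 2 mice per group and the data hold 1 section per group. With 1 section per group, no test between the conditions was possible, and a difference between the sections cannot be told apart from a difference between the mice, the cutting planes or the libraries.

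FOS, FOSB, JUN and JUNB are subunits of the AP-1 transcription factor, and ATF3 is a related leucine zipper protein that pairs with them. EGR1 is a zinc finger transcription factor, NR4A1 an orphan nuclear receptor, and IER2 a nuclear protein of less defined function, while DUSP1 is a phosphatase that switches off MAP kinases. In bone, deformation of the matrix is known to induce *Fos* and *Egr1* in osteoblasts and osteocytes. In skeletal muscle, exercise and adrenergic signals are known to induce *Nr4a1*.

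The sequences ahead of the start sites of 3 members are shown first: *Nr4a1* and *Dusp1*, the members that were at least 2-fold lower in Loaded bone, and *Junb*, the member that was higher. Of the 9 members, 7 had a RefSeq promoter entry (GRCm38.p6), and *Egr1* and *Ier2* had none. The 250 bases before the start are printed for *Nr4a1* (chr15:101266596-101266845, plus strand), *Dusp1* (chr17:26508473-26508722, minus strand) and *Junb* (chr8:84978749-84978998, minus strand), with capitals marking each match, on either strand, to the CRE core (TGACG) or the GC box (GGGCGG).
Nr4a1: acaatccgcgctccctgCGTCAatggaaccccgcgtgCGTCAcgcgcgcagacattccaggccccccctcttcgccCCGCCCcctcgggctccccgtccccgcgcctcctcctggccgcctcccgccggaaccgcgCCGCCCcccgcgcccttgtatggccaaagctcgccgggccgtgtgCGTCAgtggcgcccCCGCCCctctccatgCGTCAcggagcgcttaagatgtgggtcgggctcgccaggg
Dusp1: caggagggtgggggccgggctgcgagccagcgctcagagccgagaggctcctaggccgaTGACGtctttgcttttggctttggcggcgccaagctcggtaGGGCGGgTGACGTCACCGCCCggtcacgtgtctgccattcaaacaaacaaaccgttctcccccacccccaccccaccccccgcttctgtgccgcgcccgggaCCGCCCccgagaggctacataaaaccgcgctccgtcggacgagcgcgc
Junb: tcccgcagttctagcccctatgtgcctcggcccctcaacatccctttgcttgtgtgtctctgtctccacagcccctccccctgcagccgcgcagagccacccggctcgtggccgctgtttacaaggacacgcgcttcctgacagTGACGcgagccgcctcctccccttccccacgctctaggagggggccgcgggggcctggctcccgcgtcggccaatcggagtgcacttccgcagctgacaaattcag
The *Nr4a1* window held 4 CRE cores and 3 GC boxes. The *Dusp1* window held 3 CRE cores and 3 GC boxes, and 2 of its cores overlapped in a full CRE (TGACGTCA) that began 143 bases before the start. The *Junb* window held 1 CRE core and 0 GC boxes. A CRE core was present in 6 of the 7 windows, against 17.8% of all 32851 windows of this length, and *Jun* was the exception. A full CRE was present in 1 of the 7 windows, against 1.55% of all. GC boxes were present in 6 of the 7, against 32.7%, and a TATA box (TATAAA) in 1, that of *Fos*, against 12.4%. An AP-1 site (TGANTCA) and a CArG box (CC, then 6 bases of A or T, then GG) were present in 0 of the 7 windows, against 6.75% and 1.47%. Only exact matches within the 250 bases were counted, so near matches and sites farther from the start were not seen. These matches describe the letters of the windows and were not tested as binding sites.

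Spatial gene expression was measured with the Visium assay for formalin-fixed, paraffin-embedded tissue. Pairs of probes bind each transcript in a 5 μm section, spots of 55 μm at a spacing of 100 μm capture them, and a molecular barcode (unique molecular identifier, UMI) keeps copies of the same molecule from being counted again. A spot can hold several cells of different types, so fewer cells of a type and less RNA per cell cannot be told apart. Of 3398 spots under tissue, 3329 passed the limits of 500 UMIs and 250 genes and held 10154 UMIs of the members. The kept spots were divided into 3 classes: bone spots, whose barcodes the study lists for the fracture sites (131 in Control, 146 in Loaded), muscle spots (1047 and 702), which lay outside the bone regions and had at least 10% of their UMIs in a list of 22 skeletal muscle genes, and other spots (720 and 583). Bone spots held a median of 3478 UMIs in Control and 2621 in Loaded, muscle spots 4604 and 3388, and other spots 1550 and 2273. The classes were mixed. The muscle list took 16.6% of the UMIs of the Control bone spots and 8.82% in Loaded, and all 22 of its genes were counted in both. The osteoblast list took 2.01% and 6.49%, and the osteocyte list 0.00933% and 0.0799%. In the Control bone spots these bone lists were below their shares in the other spots (2.61% and 0.0300%), and *Fgf23*, a hormone gene of the osteocyte list, was at 0. Of the spot barcodes, 557 occurred in both sections, so barcodes were matched to the study's list within each section.

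Sums of UMIs over a class were divided by the summed scran size factors of its spots. Levels are given as normalized counts per 100 spots of average size factor, and differences as log2 ratios of Loaded over Control with exact conditional binomial 95% intervals, which cover counting error only. Each class was cut into 4 blocks at the medians of its spots along the long and short principal axis of the bone spots. Blocks show the variation within a section and are not replicates. Levels of different members are not compared, because probes differ in efficiency.

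In the bone spots the members summed to 581 UMIs in Control and 317 in Loaded, or 321 and 225 normalized counts per 100 spots (log2 ratio -0.51). *Nr4a1* was 3.05-fold lower and *Dusp1* 2.13-fold lower in the Loaded section, whereas *Junb* was 1.51-fold higher. *Jun* was lower at a log2 ratio of -0.59, and the intervals of *Fos*, *Egr1*, *Atf3* and *Ier2* included 0. Of the 8 members with at least 10 UMIs over both bone regions, 2 were at least 2-fold lower, against 9.24% of all 10003 genes tested, and 0 were at least 2-fold higher, against 11.3%. In 0 members did every Loaded block lie above every Control block (3.51% of all genes) or below it (2.10%). The median log2 ratio was -0.46 over these 8 members and 0.06 over all genes. The plot of ratios by tissue sets the bone values beside those of the other classes.

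**Figure D1:**
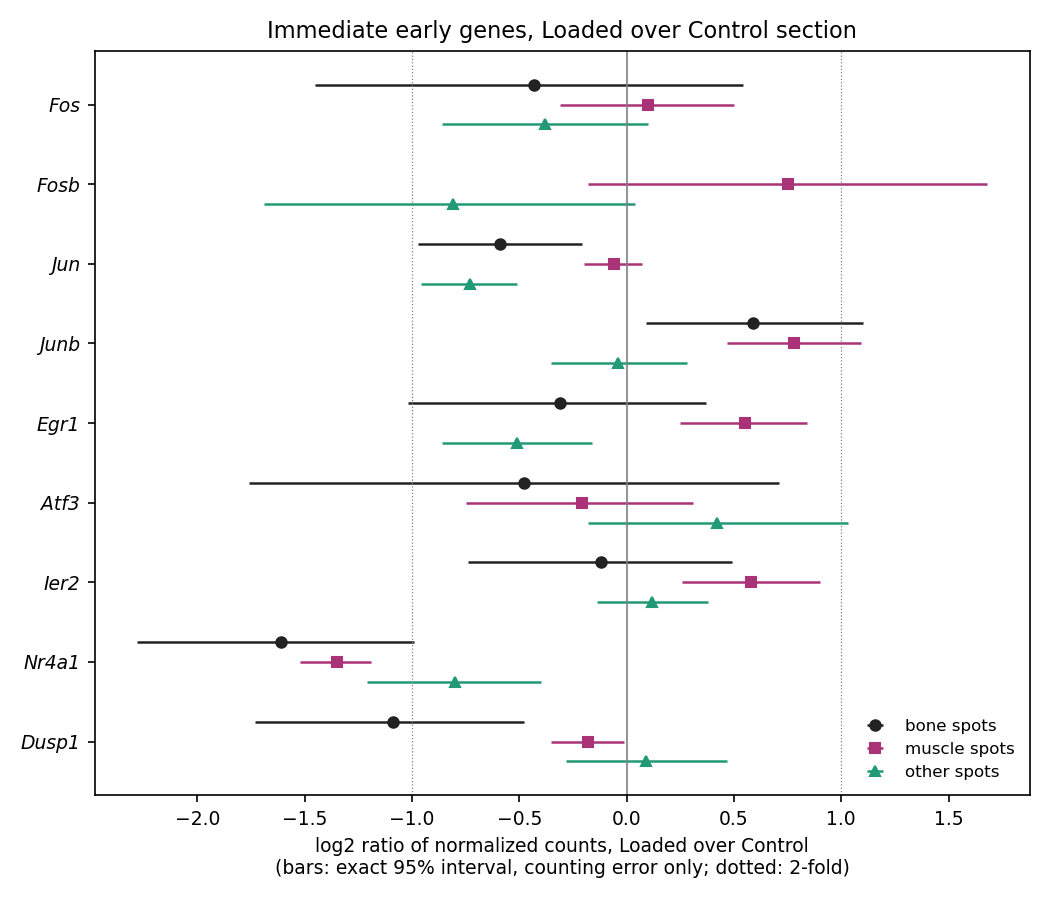
Log2 ratios of normalized counts, Loaded over Control (x axis), for each member (y axis) in bone spots (black circles), muscle spots (purple squares) and other spots (green triangles). Bars are exact 95% intervals for counting error and dotted lines mark a 2-fold difference. *Nr4a1* lies below 0 in all 3 classes (-1.61, -1.35 and -0.80), whereas *Junb* lies above 0 in bone and muscle (0.59 and 0.78). *Fosb* has no bone value because it had 0 UMIs in the Loaded bone spots.

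*Nr4a1* had 106 UMIs in the Control bone spots and 27 in the Loaded bone spots (58.5 and 19.2 per 100 spots; log2 ratio -1.61, 95% interval -2.28 to -0.99). Its 4 Control blocks were at 97.3, 47.8, 7.97 and 41.2 per 100 spots, and its 4 Loaded blocks at 9.36, 58.6, 27.1 and 18.6. The blocks overlapped, since the lowest of all was a Control block (1 UMI) and a Loaded block (8 UMIs) was above 3 of the 4 Control blocks. Left out in turn, single blocks moved the ratio between -1.97 and -1.04. The Control block with the highest *Nr4a1* level was also the block with the most muscle RNA, 29.8% of its UMIs, against 6.09% to 13.7% in the other 3 Control blocks and 5.82% to 11.8% in the Loaded blocks, and without it the ratio was -1.04.

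*Dusp1* had 85 UMIs in Control and 31 in Loaded (46.9 and 22.0 per 100 spots; log2 ratio -1.09, -1.73 to -0.48). Its Control blocks were at 72.1, 51.0, 63.7 and 23.2, and its Loaded blocks at 23.4, 22.0, 13.5 and 22.8. The Loaded blocks, with 15, 3, 2 and 11 UMIs, lay close together, and 3 of the 4 Control blocks were above all of them. The ratio ranged from -1.55 to -0.65 with single blocks left out. Without the Control block rich in muscle RNA it was -0.65 (-1.37 to 0.05), which is no longer a 2-fold difference.

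Of the AP-1 genes, *Jun* had 172 UMIs in Control and 89 in Loaded (94.9 and 63.2 per 100 spots; log2 ratio -0.59, -0.97 to -0.21). Its Control blocks lay within a narrow range, 92.7 to 104, and 3 of its Loaded blocks were below them, at 59.3, 61.0 and 53.8, while the remaining Loaded block was the highest of all, at 117. *Junb* went the other way, with 64 UMIs in Control and 75 in Loaded (35.3 and 53.3 per 100 spots; log2 ratio 0.59, 0.09 to 1.10). Its blocks were at 18.4, 47.8, 39.8 and 42.5 in Control and at 67.1, 51.3, 54.2 and 35.2 in Loaded, so that 3 Loaded blocks were above all Control blocks. The *Junb* ratio was 0.24 (-0.42 to 0.87) without the highest Loaded block and 0.29 (-0.24 to 0.82) without the Control block rich in muscle RNA.

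*Fos*, the partner of the JUN proteins in AP-1, was sparse, with 26 UMIs in Control and 15 in Loaded (14.3 and 10.7 per 100 spots; log2 ratio -0.43, -1.45 to 0.54). A single Control block, at 35.0 per 100 spots, was above all others (5.03, 15.9 and 12.9 in Control, 7.80, 7.33, 13.5 and 14.5 in Loaded), and without it the ratio was 0.09. *Fosb* had 6 UMIs, each in a spot of its own, in the Control bone spots and 0 in the 146 Loaded bone spots. A count of 0 has an upper limit of 3.69 UMIs, or 2.62 per 100 spots, which is below the Control level of 3.31 and above the lower limit of that level, 1.21, so that a difference was not detectable at this depth. *Atf3*, a stress-induced member, had 18 and 10 UMIs (9.93 and 7.10 per 100 spots; log2 ratio -0.48, -1.76 to 0.71).

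*Egr1* had 48 UMIs in Control and 30 in Loaded (26.5 and 21.3 per 100 spots; log2 ratio -0.31, -1.02 to 0.37). Its Loaded blocks, from 18.7 to 24.8, all lay inside the range of the Control blocks, 15.9 to 38.2. *Ier2* had 56 and 40 UMIs (30.9 and 28.4 per 100 spots; log2 ratio -0.12, -0.74 to 0.49), with Control blocks between 21.8 and 38.2 and Loaded blocks between 14.7 and 33.9. For these 2 genes the spread between blocks of a section was larger than the difference between the sections.

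**Figure D2:**
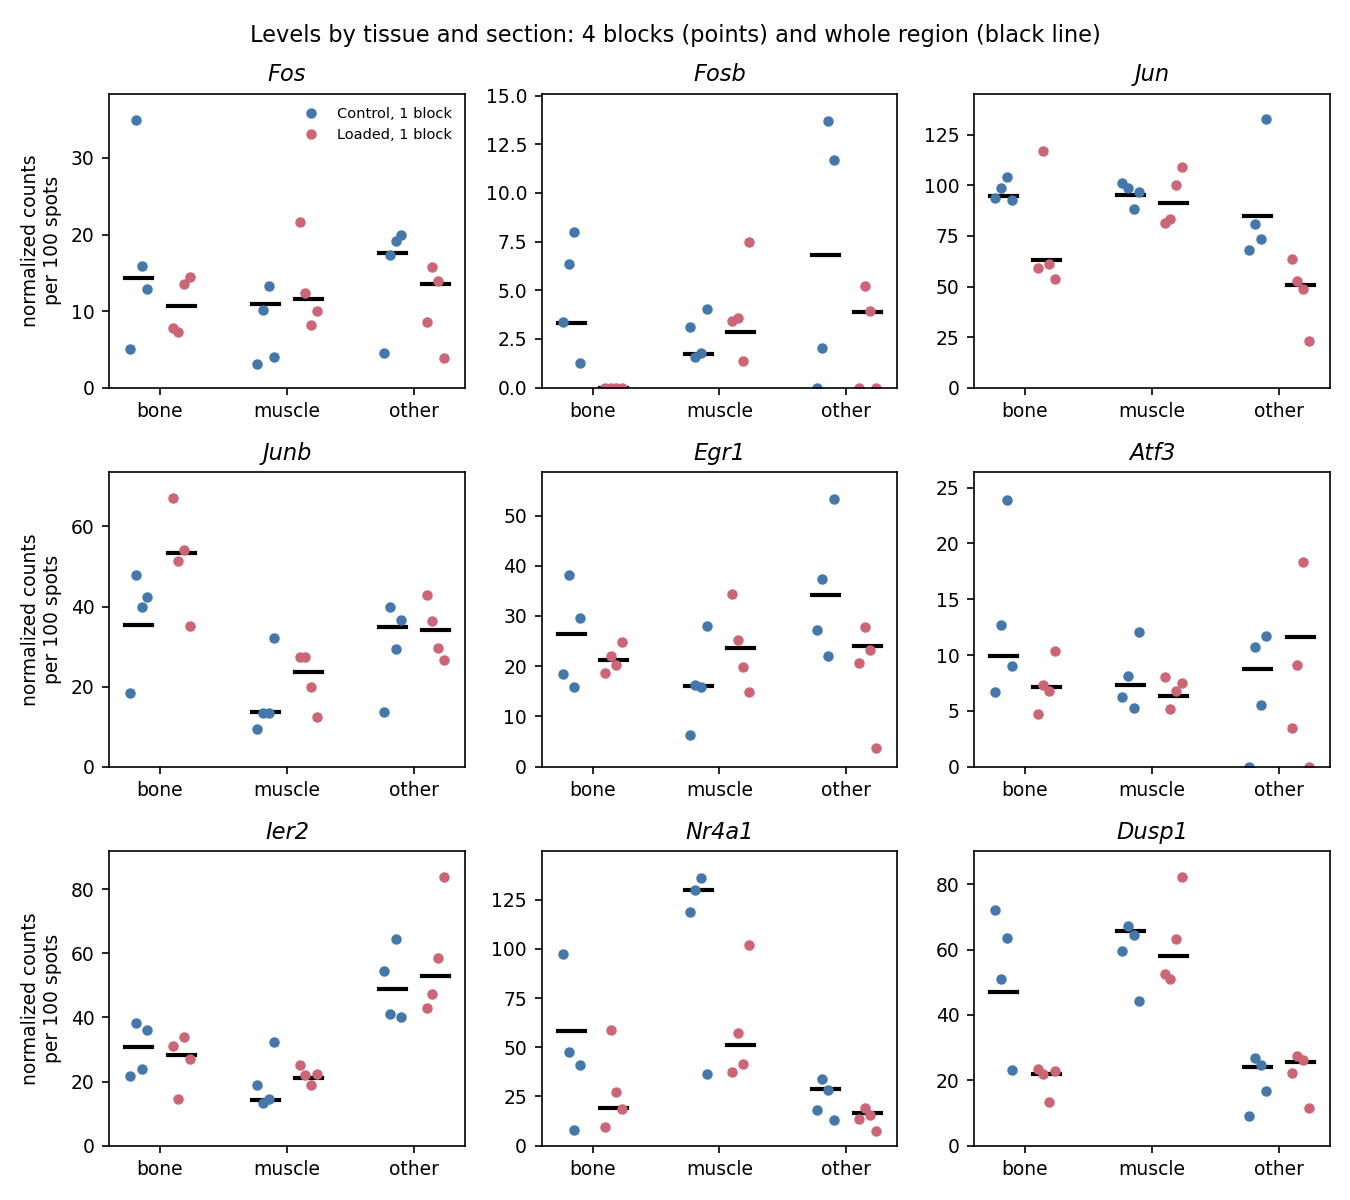
Normalized counts per 100 spots (y axes, each starting at 0) of the 9 members in the 4 blocks of each tissue class (points; Control blue, Loaded red), with the level of the whole class as a black line. In bone, the *Dusp1* Loaded blocks lie between 13.5 and 23.4, and 3 Control blocks between 51.0 and 72.1; the *Nr4a1* blocks of both sections overlap.

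Because the Loaded bone spots were shallower, the share of spots with a UMI of a member was also compared at an equal depth of 1000 UMIs. The 15 Loaded bone spots below that depth were not used, and all Control bone spots were deeper. At least 1 member was counted in 57.3% of the 131 Control bone spots and in 45.0% of the 131 remaining Loaded ones. The exact binomial 95% intervals were 48.3 to 65.9 and 36.3 to 54.0. Before thinning these shares were 93.1% and 78.8%. *Nr4a1* was present in 12.2% (7.15 to 19.1) and 5.34% (2.18 to 10.7) of the thinned spots, and *Junb* in 8.40% (4.27 to 14.5) and 15.3% (9.58 to 22.6), so that both intervals overlapped between the sections. *Dusp1*, which differed 2-fold in level, was present in 12.2% and 9.92%. Each thinning was 1 random draw. Thinned to 500 UMIs, with all 131 Control and 146 Loaded bone spots kept, the *Nr4a1* shares were 4.58% and 4.79%. They were 1.53% and 6.16% for *Junb*, and 9.92% and 3.42% for *Dusp1*. At 1000 UMIs, 56 Control and 72 Loaded spots had 0 members, 51 and 39 had 1, 19 and 15 had 2, 3 and 4 had 3, and 2 and 1 had 4 or more, with a highest number of 5 in each section. The members were spread over many spots. The 13 Control bone spots with the most member UMIs held 29.3% of them, against 24.8% of all UMIs in the 13 deepest spots, and the corresponding 15 Loaded spots held 33.8%, against 23.7%.

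The levels of several members followed the muscle RNA in a spot. After the values were seen, bone spots were therefore also compared within ranges of the muscle list's share. Below 5%, *Nr4a1* had 10 UMIs in 15 Control spots and 4 in 26 Loaded spots (log2 ratio -1.58, -3.71 to 0.21). Between 5% and 10% it had 35 and 7 UMIs in 44 and 51 spots (-1.69, -3.11 to -0.50). Between 10% and 20% the order was the opposite, with 3 UMIs in 34 Control spots and 15 in 67 Loaded spots (1.09, -0.73 to 3.52). Above 20% there were 38 Control spots with 58 *Nr4a1* UMIs but only 2 Loaded spots, so that 58 of the 106 Control *Nr4a1* UMIs came from a range with almost no Loaded spots. *Dusp1* was lower in Loaded in the 3 ranges with enough spots (-1.85, -0.32 and -1.53), with an interval beyond 0 in the range from 10% to 20% (-2.71 to -0.38). *Junb* was higher in Loaded in the same 3 ranges, by 0.30, 0.34 and 0.29, each with an interval that included 0. *Jun* was lower in Loaded in these 3 ranges (-0.52, -1.18 and -0.48), with an interval beyond 0 in the range from 5% to 10% only (-1.98 to -0.45).

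**Figure D3:**
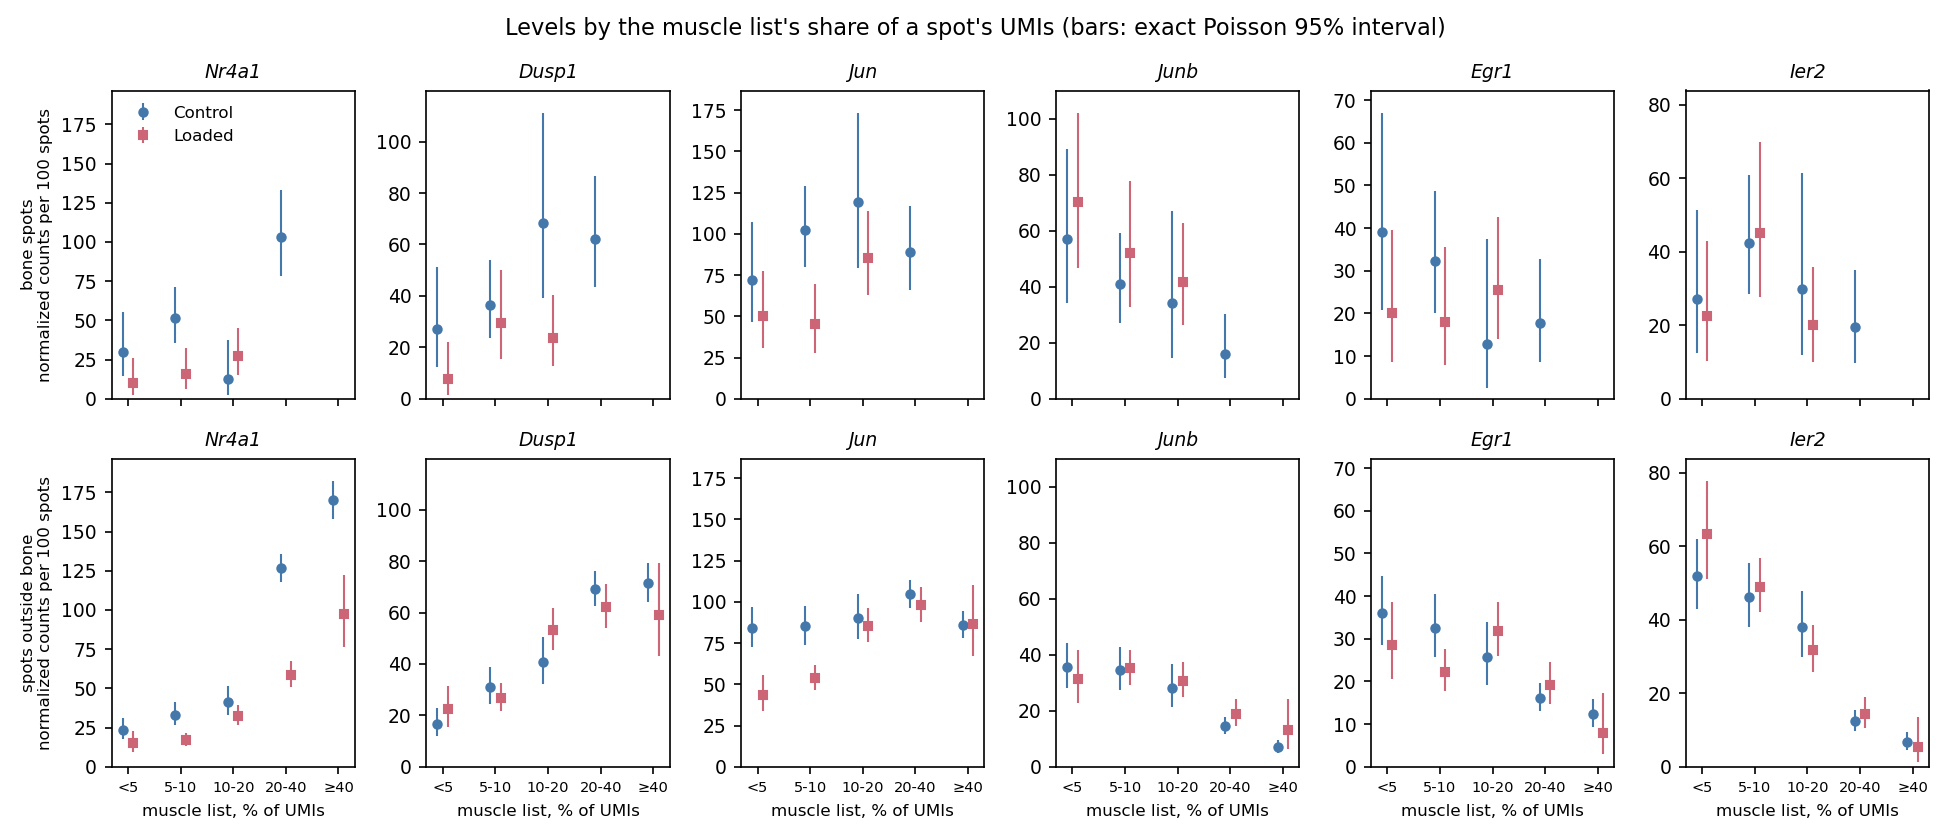
Levels of 6 members, in normalized counts per 100 spots (y axes), in spots grouped by the muscle list's percentage of their UMIs (x axis), for bone spots (upper row) and spots outside the bone regions (lower row). Points are Control (blue circles) and Loaded (red squares), bars are exact Poisson 95% intervals, and groups with fewer than 10 spots are not drawn. Outside bone, Control *Nr4a1* goes from 23.7 in the spots with the least muscle RNA to 170 in those with the most, and *Ier2* from 51.8 to 6.74.

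In the muscle spots the members divided. *Nr4a1* had 1679 UMIs in Control and 373 in Loaded (130 and 51.1 per 100 spots; log2 ratio -1.35, -1.52 to -1.19), the largest difference of any member in muscle. Its blocks were at 119, 130, 136 and 36.2 in Control and at 37.7, 57.5, 41.3 and 102 in Loaded, so that 3 Control blocks were above every Loaded block and the 4th, with 42 spots, below them all. There were 3 members higher in the Loaded muscle spots: *Junb* (13.7 and 23.6 per 100 spots; log2 ratio 0.78, 0.47 to 1.09), *Ier2* (14.1 and 21.1; 0.58, 0.26 to 0.90) and *Egr1* (16.1 and 23.6; 0.55, 0.25 to 0.84). *Jun* (95.4 and 91.3; -0.06, -0.20 to 0.07) and *Dusp1* (65.8 and 57.9; -0.18, -0.35 to -0.01) were closer to 0, and the directions of both depended on the scale. *Fos* had 140 and 85 UMIs (0.10, -0.31 to 0.50), *Fosb* 22 and 21 (0.75, -0.18 to 1.68) and *Atf3* 94 and 46 (-0.21, -0.75 to 0.31). At least 2-fold lower was 1 of 9 members, against 6.12% of 12808 genes, and at least 2-fold higher were 0, against 6.19%. In 0 members did the blocks not overlap, against 1.75% of genes with every Loaded block higher and 3.03% with every Loaded block lower. The median log2 ratio was 0.10 over the 9 members, with 4 of them below 0, and -0.01 over all genes.

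These muscle values depended on the scale. The muscle list took 36.6% of the UMIs of the Control and 26.5% of the Loaded muscle spots, and its part in this dependence was not tested. With library totals in place of size factors, the median of all genes in muscle moved from -0.01 to 0.43, and *Nr4a1* was at -0.92 and so within 2-fold. *Fosb*, *Junb* and *Ier2* were then past 2-fold higher (1.19, 1.21 and 1.01), as were 17.3% of all genes. On that scale *Jun* was at 0.37 and *Dusp1* at 0.25. Every Loaded block of *Dusp1* was then above every Control block, which held for 4.68% of all genes. With equal weight for every spot, *Nr4a1* was at -0.86, *Junb* at 0.19, *Ier2* at 0.29 and *Egr1* at 0.01. Ranges of muscle share match the share of the list, not which of its genes were counted. Of its 22 genes, 9 were at least 2-fold lower in the Loaded muscle spots and 2 higher, with a median of -0.83. *Myh4* was at -1.33 and *Pvalb* at -1.39, and *Myh2* at 1.07 and *Actn2* at 1.37. The part of this difference in the members' values was not tested. Outside the bone regions, *Nr4a1* was lower in Loaded in every range of muscle share: -0.66 below 5%, -0.97 from 5% to 10%, -0.36 from 10% to 20%, -1.11 from 20% to 40% and -0.80 above 40%. Its intervals lay beyond 0 in 3 of these 5 ranges, those from 5% to 10% (-1.46 to -0.47), from 20% to 40% (-1.35 to -0.89) and above 40% (-1.17 to -0.46). From 10% to 20%, from 20% to 40% and above 40%, *Junb* was at 0.13, 0.38 and 0.92. In the same ranges *Ier2* was at -0.26, 0.22 and -0.36, and *Egr1* at 0.31, 0.25 and -0.64. Each of these intervals of *Junb*, *Ier2* and *Egr1* included 0.

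**Figure D4:**
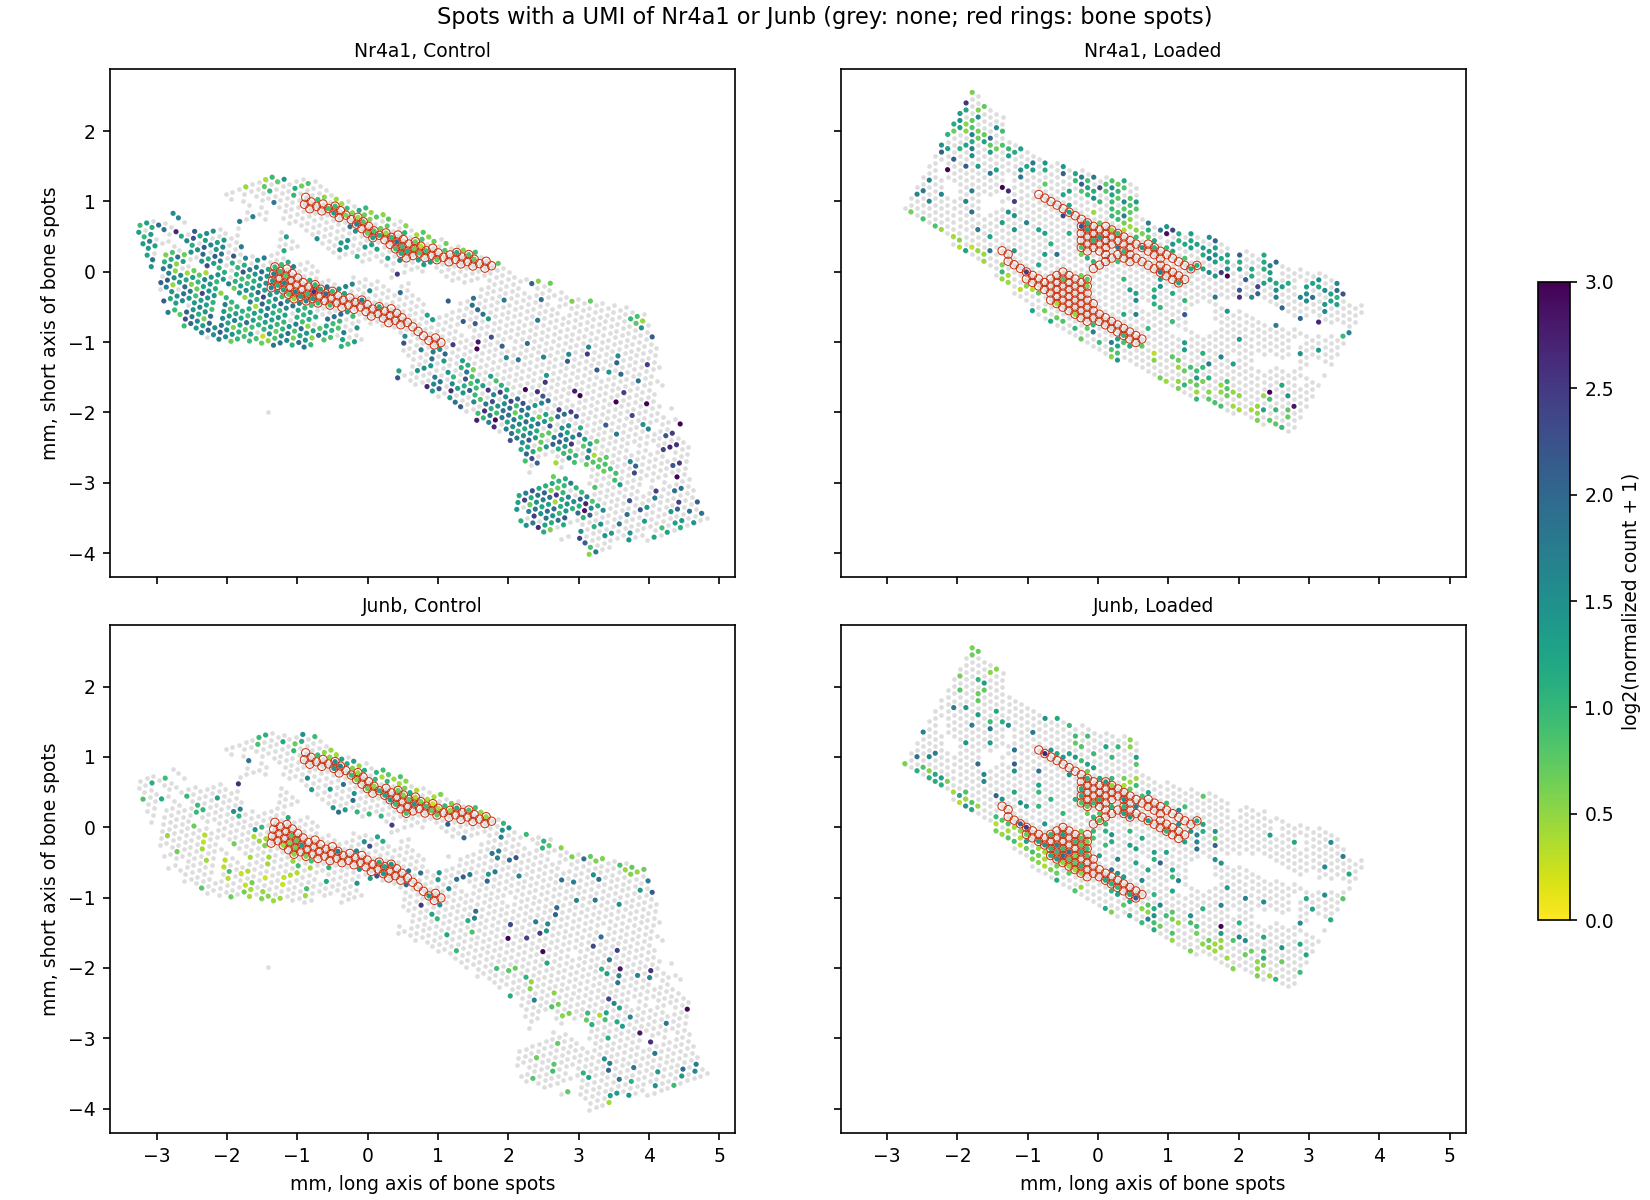
Positions of the kept spots in mm along the long (x axis) and short (y axis) principal axis of the bone spots, for *Nr4a1* (upper row) and *Junb* (lower row) in the Control (left) and Loaded (right) section. Colour is log2(normalized count + 1), with values above 3 at the darkest shade, grey spots had no UMI and red rings mark the 131 and 146 bone spots. In Control, *Nr4a1* is denser in the muscle masses beside the bone (130 per 100 muscle spots) than in bone (58.5), and *Junb* is thinner there (13.7) than in bone (35.3).

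The other spots held unlike mixtures in the sections. The erythroid list took 7.40% of their UMIs in Control and 7.81% in Loaded. The chondrocyte list took 0.290% and 0.0624%, the adipocyte list 0.392% and 0.124%, and the granulocyte list 0.320% and 0.699%. The part of these mixtures in the members' values was not tested. *Jun* was lower in the Loaded other spots (84.7 and 51.0 per 100 spots; log2 ratio -0.73, -0.96 to -0.51). Its Control blocks were at 68.2, 81.0, 73.5 and 133 and its Loaded blocks at 63.5, 52.6, 49.0 and 22.9, so that the blocks of the sections did not overlap, although they did with library totals. This held for 1 of the 9 members, against 2.23% of 14844 genes, while every block was higher for 0 members, against 2.12%. *Nr4a1* was again lower (28.7 and 16.5; -0.80, -1.21 to -0.40), as was *Egr1* (161 and 124 UMIs; -0.51, -0.86 to -0.16). *Ier2* reached its highest levels here, 48.9 and 53.1 per 100 spots (0.12, -0.14 to 0.38). *Junb* (-0.04), *Dusp1* (0.09), *Fos* (-0.38), *Fosb* (-0.81) and *Atf3* (0.42) had intervals that included 0. None of the 9 members was past 2-fold in the other spots, against 8.28% of genes lower and 3.64% higher.

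Within the Control section, *Junb* and *Ier2* were at least 2-fold higher in bone than in muscle spots (log2 ratio of bone over muscle 1.36 and 1.13), and *Nr4a1* was at least 2-fold lower (-1.15). These were 2 and 1 of 9 members, against 15.3% of all genes higher and 15.8% lower. Within the Loaded section, *Junb* was higher in bone (1.18, 0.77 to 1.58), with every bone block above every muscle block, and *Nr4a1* (-1.41) and *Dusp1* (-1.40) were lower, against 13.6% of genes higher and 14.7% lower. Blocks did not overlap for 1 member higher (*Junb*) and 2 lower (*Dusp1*, and *Fosb*, at 0 in bone) in Loaded, against 6.54% and 10.7% of genes, and for 0 members in Control, against 1.60% of genes higher and 5.07% lower. With library totals, Control *Nr4a1* was at -0.35 and Loaded *Nr4a1* and *Dusp1* at -0.95 and -0.94, within 2-fold. With equal weight for every spot, *Junb* and *Ier2* in Control were at 0.65 and 0.40, also within 2-fold. Library totals also moved members the other way, with *Fos* (1.21), *Fosb* (1.77), *Egr1* (1.52) and *Atf3* (1.26) past 2-fold higher in Control bone. The Control ratio of the summed members moved from -0.15 to 0.66 on that scale. The share of all genes past 2-fold in bone over muscle on that scale was not counted. *Ier2* in Control was at 0.96 with TMM factors and at 0.69 with muscle spots set at 5%. That limit also left *Nr4a1* in Control at -0.97 and *Junb* in Loaded at 0.96, and totals without the 20 most abundant genes left *Nr4a1* in Control at -0.72. Of the blocks, Control bone block 4 left *Nr4a1* at -0.87 and *Ier2* at 0.94 when removed, Control muscle block 2 left *Ier2* at 0.96, and Loaded bone block 1 left *Junb* at 0.82 and *Nr4a1* at -0.90. The *Jun* ratio was -0.01 in Control (-0.25 to 0.22) and -0.53 in Loaded (-0.87 to -0.21). With library totals it was 0.80 (0.56 to 1.03) and -0.07 (-0.41 to 0.25), so that neither value was independent of the scale. *Egr1* was higher in bone in Control (0.72, 0.23 to 1.17), and its Loaded value was -0.14 (-0.76 to 0.42). Whether bone and muscle differed more in 1 section than in the other was not tested.

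By distance from the nearest bone spot, Control *Nr4a1* was at 58.5 per 100 spots in the bone spots, 63.8 up to 150 μm away, 89.1 from 150 to 500 μm, 118 from 500 to 1000 μm and 109 beyond. The Loaded values were 19.2, 22.7, 37.1, 40.8 and 39.6, lower at every distance. *Junb* had the opposite gradient in both sections, at 35.3 in bone and 15.9 beyond 1000 μm in Control, and at 53.3 and 21.5 in Loaded. The muscle list's share changed over the same distances, 16.6% in bone and 32.6% beyond 1000 μm in Control, 8.82% and 22.6% in Loaded, and its part in these gradients was not tested. The summed members lay between 318 and 363 per 100 spots at all distances in Control and between 225 and 287 in Loaded.

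Over the 24 blocks of both sections, the members did not form a single group. Blocks of a section share a library, so the correlations over blocks are descriptions. Members and single genes entered as log2 levels, and lists as the log2 of their share of a block's UMIs. The shares of different lists in a block are not independent of each other, and the part of this in the list correlations was not tested. *Nr4a1* and *Dusp1* went together (Pearson's r = 0.66), as did *Fos* and *Egr1* (0.63) and *Jun* and *Nr4a1* (0.56), whereas *Ier2* went against *Nr4a1* (-0.70) and *Dusp1* (-0.69). *Dusp1* and *Nr4a1* followed the muscle list (0.82 and 0.79), which *Ier2* (-0.81) and *Junb* (-0.64) opposed. *Junb* followed the AP-1 target list (0.86), the osteoblast list (0.84) and the macrophage list (0.83). The granulocyte list had the strongest correlation of any list with the summed members (-0.79), and went against *Nr4a1* (-0.79), *Dusp1* (-0.74) and *Jun* (-0.69) and with *Ier2* (0.70) and *Junb* (0.59). It took 0.111% of the UMIs of the Control bone spots (blocks 0.0763% to 0.292%) and 0.443% in Loaded (0.344% to 0.656%), and 9 of its 10 genes were at least 2-fold higher in Loaded bone (median 1.87). The osteocyte list had 4 of 4 genes at least 2-fold higher there (median 3.64), and the Schwann list 5 of 5 lower (median -1.58). In bone, 6 of 7 osteoblast genes were at least 2-fold higher in Loaded (median 1.69) and 0 of 6 macrophage genes (median 0.11), while 12 of 22 muscle genes were at least 2-fold lower (median -1.13). The part of these cell types in the members' values was not tested beyond the ranges of muscle share. Among 4323 genes with at least 500 UMIs, the 5 most like the summed members over these blocks were *Phlda3* (0.87), *Ube2j2* (0.84), *Ado* (0.84), *Lrig1* (0.82) and *Zfp503* (0.82).

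Of 30 other primary response genes, 24 had enough UMIs in bone, and their median log2 ratio was -0.50, with 15 of them below 0. At least 2-fold lower were 5 and higher was 1 (*Csrnp1*, a nuclear protein, with 7 and 18 UMIs), against the 9.24% and 11.3% of all genes given above. *Ccn2*, a matricellular protein induced by strain and TGF-β, was the lowest of those with at least 30 UMIs, with 656 UMIs in Control and 41 in Loaded (-3.64, -4.13 to -3.18). Its blocks did not overlap (98.9 to 579 per 100 spots in Control, 20.3 to 36.6 in Loaded). *Klf2*, a flow-induced transcription factor of endothelium, followed with 103 and 23 UMIs (-1.80, -2.52 to -1.14), and *Sik1*, a kinase induced by cyclic AMP, with 48 and 15 (-1.31, -2.26 to -0.45). The highest were *Klf4*, a zinc finger factor, with 27 and 41 UMIs (0.97, 0.23 to 1.72), *Dusp6*, a phosphatase of ERK, with 42 and 60 (0.88, 0.29 to 1.48), and *Myc* with 14 and 18 (0.73, -0.36 to 1.85). In muscle, 29 of the list had enough UMIs, with a median of -0.04 and 1 past 2-fold in each direction. The higher was *Egr2*, a zinc finger factor related to *Egr1*, with 11 UMIs in Control and 14 in Loaded (1.17, -0.08 to 2.45), an interval that included 0. The lower was *Nr4a3*, another NR4A receptor, with 102 UMIs in Control and 12 in Loaded (-2.27, -3.27 to -1.40). In bone it had 11 and 2 UMIs (-2.10, -5.31 to 0.10), and in the other spots 15 and 4 (-2.04, -4.09 to -0.39). The lower values of the list were not particular to bone. In the other spots 29 of the list were tested, with a median of -0.51 and 24 below 0. There 9 were at least 2-fold lower and 0 higher, against 8.28% and 3.64% of all genes. *Ccn2* (-2.46) and *Klf2* (-1.32) were among the lower there, and *Sik1* was at -0.28. *Egr2*, *Nr4a3* and *Csrnp1* were picked out after their values were seen.

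**Figure D5:**
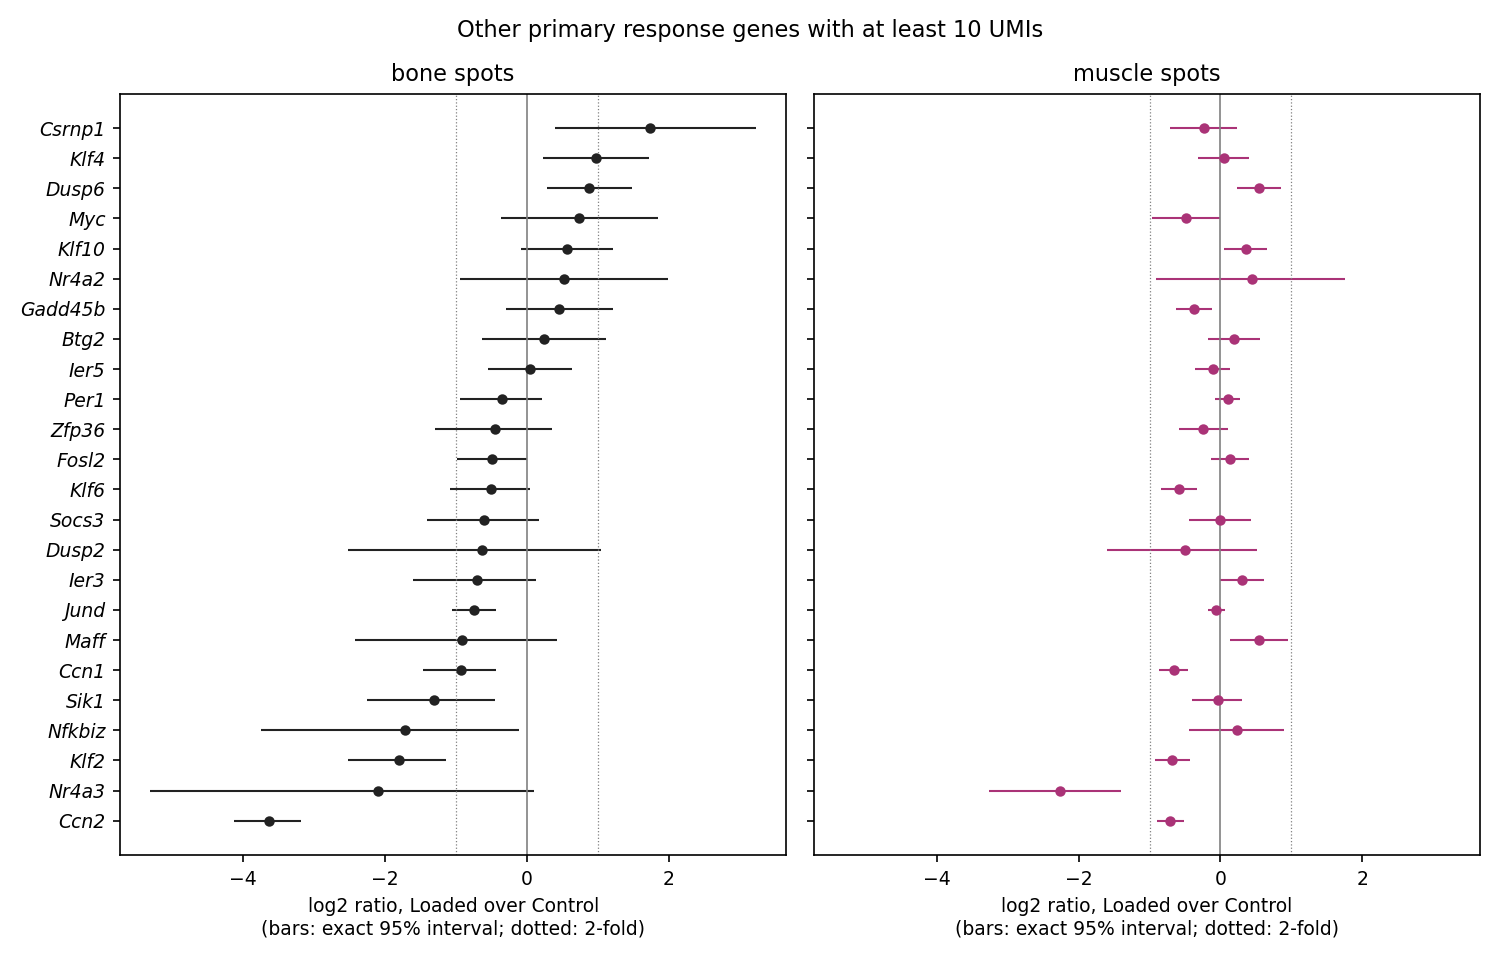
Log2 ratios of Loaded over Control (x axes) for the 24 other primary response genes with at least 10 UMIs in bone (y axis), in bone spots (left) and muscle spots (right). Bars are exact 95% intervals for counting error and dotted lines mark a 2-fold difference. *Ccn2* is the lowest in bone, at -3.64, and *Nr4a3* the lowest in muscle, at -2.27.

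The genes around the members in the pathway are given by counts in bone, where 11.3% of all genes were at least 2-fold higher and 9.24% lower. The counts of 1 in the first lists are near these shares. Of 16 upstream kinases and factors, such as the MAP kinases and SRF, 1 was at least 2-fold lower (*Atf1*, with 8 and 2 UMIs) and 0 higher, with a median of -0.05. Of 9 AP-1 and ATF partners, 0 were lower and 1 higher (*Batf3*, with 4 and 10 UMIs), with a median of 0.19. Of 9 AP-1 target genes tested, 0 were lower and 4 higher, with a median of 0.35: *Plaur*, the urokinase receptor (15 and 50 UMIs; 2.10, 1.25 to 3.04), *Timp1*, an inhibitor of metalloproteinases (24 and 68; 1.87, 1.18 to 2.60), *Mmp3*, a metalloproteinase (7 and 16; 1.56, 0.20 to 3.08), and *Hmox1*, which degrades heme (34 and 60; 1.18, 0.55 to 1.84). Below 0 in the AP-1 target list were 2 genes, *Mmp13* (303 and 185 UMIs; -0.35, -0.62 to -0.08) and *Vim* (829 and 498; -0.37, -0.53 to -0.21). The whole AP-1 target list took 0.259% of the UMIs of the Control bone spots and 0.267% in Loaded. In bone the blocks of *Timp1*, *Mmp3* and *Hmox1* overlapped between the sections. Those of *Plaur* did not, and every Loaded block was higher for 3.51% of all genes. Of these genes, *Timp1*, *Mmp3* and *Hmox1* were also higher in muscle. There 3 of 9 genes of the list were higher and 0 lower, with a median of 0.36: *Timp1* (1.79), *Mmp3* (1.53) and *Hmox1* (1.52). *Plaur* was at 0.36 in muscle. In the other spots 0 of 10 genes of the list were past 2-fold, with a median of -0.16 and 7 below 0. *Timp1* was at 0.62 there, *Hmox1* at 0.30 and *Mmp3* at -0.01. The list took 0.264% of the UMIs of the other spots in Control and 0.187% in Loaded. Of 6 heat shock genes, 2 were higher in bone (*Dnajb1*, 35 and 65 UMIs, and *Hspa1a*, 3 and 8) and 0 lower, with a median of 0.16. Of 11 glucocorticoid responsive genes, 2 were lower and 0 higher in bone, with a median of -0.72, and the same counts held in muscle, with a median of -0.44, against 6.12% of all genes lower and 6.19% higher there. The 2 genes were *Pdk4*, a fuel switch kinase (70 and 5 UMIs in bone, -3.44; 1112 and 115 in muscle, -2.45), and *Zbtb16*, a transcription factor (33 and 7, -1.87; 359 and 52, -1.97).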

How the data were processed

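Spatial gene expression was analysed in 1 Control and 1 Loaded section. The authors counted UMIs per gene and spot with Space Ranger 2.0.0 (per the file headers; R 4.3.1 and Seurat are also named in the submitters' processing notes, with build mm10) and deposited raw counts without normalization. Barcodes of the bone spots came from the study's list. Spots with fewer than 500 UMIs or 250 genes were left out, and size factors were computed with scran 1.30.0 (R 4.3.3) over all kept spots of both sections. A sum of 0 was set to a floor of 3 UMIs for a ratio. Genes needed 10 UMIs over the spots compared, and called means past 2-fold. Other computations ran in Python 3.11.15 (pandas 2.3.3, scipy 1.17.1, numpy 2.4.6, matplotlib 3.10.9). The ratios of Loaded over Control and their intervals were tested on counts simulated with counting error only. Members, lists and the likeness rule (5 genes) were chosen with earlier results of these data known. Named primary response genes are the 3 highest and 3 lowest with at least 30 UMIs in bone. Genes named outside these rules were chosen after their values were seen. Of the lists, *Rps6ka1*, *Rps6ka3*, *Hspa8*, *Bglap2* and *Hba-a1* were not matched by symbol. The ranges of muscle share were chosen after the values were seen.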

Additional observations from a re-analysis of the deposited data

Results flagged for a closer look

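On the scran size factors, *Egr1* went in opposite directions in the tissues around the bone, but its muscle value did not hold within ranges of muscle share. In the muscle spots its log2 ratio of Loaded over Control was 0.55 (0.25 to 0.84), with 208 UMIs in Control and 172 in Loaded, and in the other spots it was -0.51 (-0.86 to -0.16), with 161 and 124 UMIs. Both intervals lie beyond 0 for counting error, and the difference between the tissues was not tested. The blocks of the sections overlapped in both tissues. The muscle value was 0.01 with equal weight for every spot and 0.98 with library totals. Outside bone it was 0.31 at muscle shares from 10% to 20%, 0.25 from 20% to 40% and -0.64 above 40%, each with an interval that included 0. It was -0.33 (-0.90 to 0.22) below 5% and -0.55 (-1.01 to -0.09) from 5% to 10%.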

How the results depend on the processing

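No paired analysis was possible because there is 1 section per group. For the summed members, with each block left out in turn, the log2 ratio of Loaded over Control ranged from -0.61 to -0.45 in bone, from -0.32 to -0.26 in muscle and from -0.35 to -0.27 in other spots, and that of bone over muscle between -0.20 and -0.04 in Control and between -0.41 and -0.30 in Loaded. In bone the other 8 alternatives for the sum lay between -0.56 and -0.43. The bone sum leaned in part on *Nr4a1* and *Dusp1*, which held 106 and 85 of its 581 UMIs in Control and 27 and 31 of 317 in Loaded. The median over the 8 members with enough UMIs in bone was -0.46, with 7 below 0. In muscle the sum (-0.30) was 0.14 with library totals, so its direction depended on the scale, -0.10 without the 20 most abundant genes, -0.38 with TMM factors (edgeR 4.0.16), and -0.22 both with size factors of the compared spots only and with equal weight for every spot. The muscle sum also leaned on *Nr4a1*, which held 1679 of its 4580 UMIs in Control and 373 of 2113 in Loaded. The median over the 9 members in muscle was 0.10, with 4 below 0. In other spots (-0.31) the sum was -0.19 with TMM factors, -0.18 with equal weight and -0.17 with muscle spots set at 20%. Bone over muscle in Control (-0.15) was 0.66 with library totals, 0.28 without the 20 genes and -0.32 with TMM factors, and in Loaded (-0.36) 0.10 and -0.13 with the first 2 of these. Library totals left 3 members at least 2-fold higher and 0 lower in muscle, against 17.3% and 1.91% of all genes. On that scale 1 member (*Dusp1*) had every block higher in muscle, against 4.68% of genes. In bone 1 (*Dusp1*) had every block lower, against 1.84%, and in other spots 0 did, against 1.91%. A minimum of 1 UMI also gave 1 member (*Fosb*) with every block lower in bone, against 1.41% of genes. The share of spots with any member, thinned to 500 UMIs and not thinned, was 38.9% and 93.1% in Control bone, 32.1% and 83.9% in Control muscle, 31.7% and 66.7% in Control other, 26.0% and 78.8% in Loaded bone, 28.8% and 86.5% in Loaded muscle, and 28.8% and 73.9% in Loaded other spots. Among values of single members under alternatives, 699 kept within the interval of their main value and 144 moved. These include ratios with single blocks left out, which reuse most of the same UMIs, and shares at other depths, which change with depth. Sparse members have wide intervals and seldom leave them, so these counts do not measure how stable the members are. For *Fos*, *Fosb* and *Atf3* in bone, depth allowed only large differences to be seen.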
